A study of Mus musculus with 17 samples.

Results

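The 9 genes described here (Glud1, Slc38a3, Slc4a4, Foxi1, Atp6v1b1, Slc4a1, Slc26a4, Rhcg and Car2) serve acid-base balance in the kidney: enzymes, carriers and a proton pump subunit that make ammonia or handle acid, bicarbonate and ammonia, and a transcription factor of the cells that do so. They were taken by symbol from a table of 22561 genes, and all 9 were found and tested in every comparison. Whole-kidney RNA was sequenced from 17 male mice, 1 library per mouse, in 3 groups. The Ctrl group held 5 C57BL/6 mice given saline. The Case group held 6 db/db mice of the strain BKS.Cg-Dock7m +/+ Leprdb/J, which become obese and diabetic through a defective leptin receptor, also given saline. The Dapa group held 6 db/db mice of that strain given dapagliflozin, an inhibitor of the sodium-glucose cotransporter SGLT2, by oral gavage at 1.0 mg/kg per day. Mice were 8 weeks old at the start and were treated for 6 weeks. Since Ctrl mice were of another strain, the Leprdb allele and the strain background cannot be told apart in any comparison with Ctrl. No Ctrl mice received dapagliflozin.

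The kidney keeps blood pH steady by reclaiming filtered bicarbonate and by excreting acid, much of it as ammonium. Proximal tubule cells take up glutamine, split ammonium from it in their mitochondria and return new bicarbonate to the blood. In the collecting duct, intercalated cells finish the task: type A cells pump protons into the urine and pass bicarbonate to the blood, type B cells do the reverse, and Rh glycoproteins carry ammonia across both membranes.

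Library totals ran from 13039535 to 17779635 counts, and mitochondrial genes took 17.9% to 20.4% of them in Ctrl, 19.8% to 27.3% in Case and 19.7% to 27.6% in Dapa, a difference whose part in the comparisons with Ctrl was not tested. In 7 libraries (Ctrl replicates 1, 3 and 4, Case replicate 1 and Dapa replicates 10, 11 and 12) the deposited FPKM values were more than 0.5% off the counts in 3 genes that ran over 2 lines of the table, so these libraries were treated as a possible batch and the 3 genes were left out. Ctrl replicate 2 was 0.12% off in these genes, and the fits with the batch were also run with it as an eighth library. The remaining values followed count, total and gene length to within 0.00553%. Lepr, whose transcript the Leprdb allele alters, had 1.01 ± 0.572 FPKM in Ctrl (SD, n = 5), 2.57 ± 1.81 in Case (SD, n = 6) and 2.64 ± 1.74 in Dapa (SD, n = 6), and a count over the whole gene does not check the allele. Proximal tubule markers were present in every group, but the summed FPKM of 10 of them was lower in the diabetic groups, with 3200 to 3810 in Ctrl, 1850 to 3140 in Case and 2020 to 2940 in Dapa. In a whole kidney, fewer cells of a type and less RNA per cell cannot be told apart.

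FPKM, which is corrected for gene length, allows levels to be compared between genes. In the Ctrl kidney the order of the mean FPKM levels was Glud1, Slc4a4, Car2, Rhcg, Slc26a4, Atp6v1b1, Foxi1, Slc4a1 and Slc38a3, from 146 ± 11.9 for Glud1 to 3.16 ± 0.795 for Slc38a3 (SD, n = 5). The ranges of neighbours in this order overlapped except between Car2 and Rhcg, between Slc26a4 and Atp6v1b1, and between Foxi1 and Slc4a1. The 9 genes thus lay on 4 steps of level, with the proximal genes Glud1 and Slc4a4 and the widely used Car2 on the highest, and with the red cell and type A exchanger Slc4a1 and the glutamine carrier Slc38a3 on the lowest. The lowest count of any of the 9 genes in a mouse was 297, for Foxi1.

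**Figure D1:**
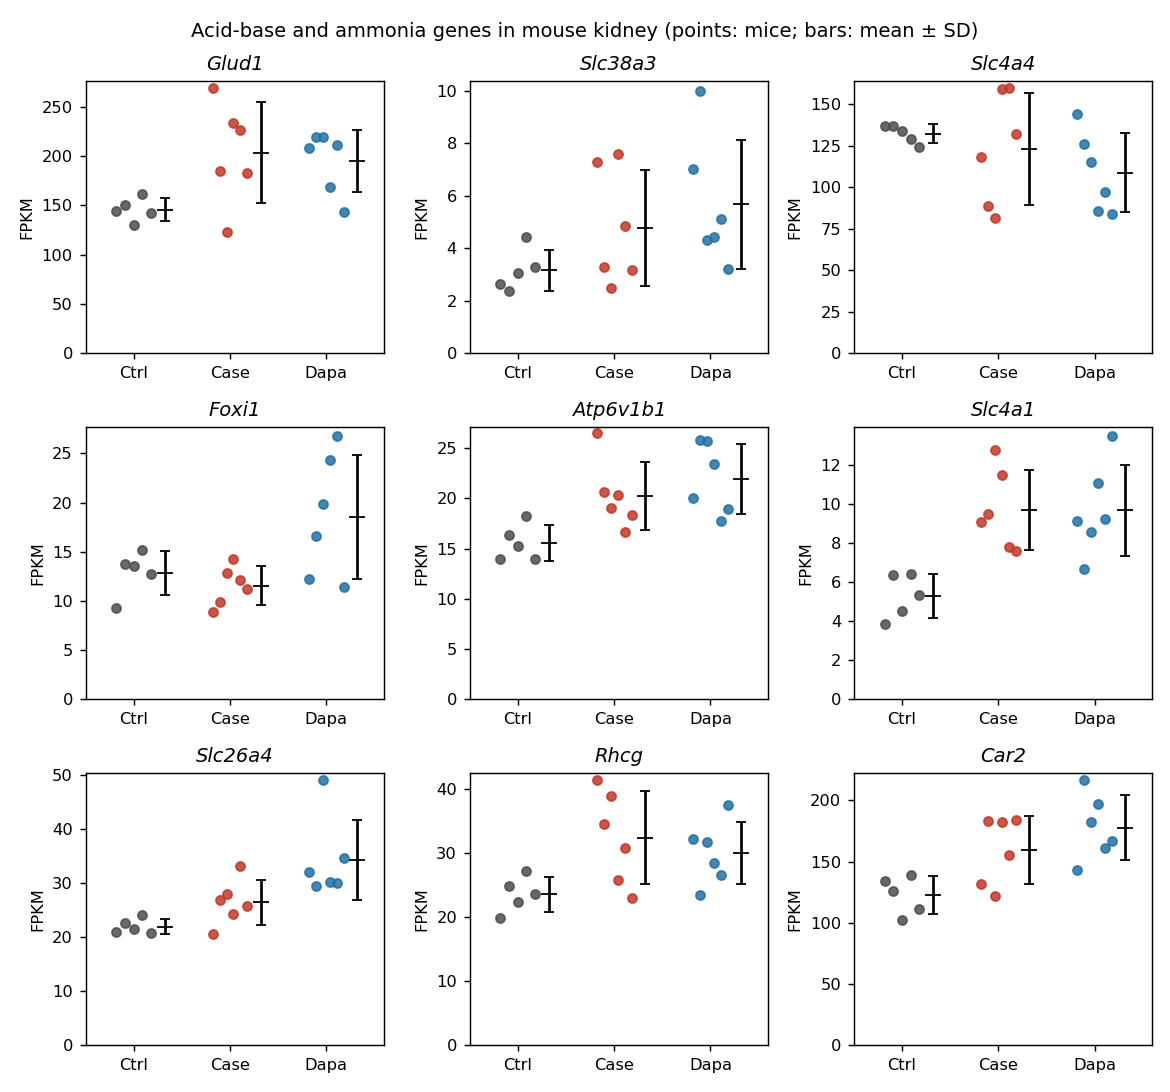
FPKM (vertical axes, linear from 0) of the 9 genes in each mouse (points) of the Ctrl, Case and Dapa groups, with the mean and SD of each group beside the points. Slc4a1 in Case and Slc4a1, Slc26a4 and Car2 in Dapa lie above every Ctrl mouse, as do 4.97% of all genes in Case and 9.79% in Dapa. Slc26a4 has 1 Dapa mouse at 49.0 FPKM, apart from the others.

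Case and Ctrl were compared to ask how the diabetic kidney differs from the control kidney. Slc4a1 rose, and it was the sole gene of the 9 that passed the test (edgeR's quasi-likelihood test, Benjamini-Hochberg adjusted p under 0.05 over all genes tested). Of all 14582 genes tested, 13.0% passed, 6.91% lower and 6.09% higher in the diabetic kidney. The median log2 fold change was 0.31 over the 9 genes and 0.03 over all genes tested, and 4 of the 9 had an unadjusted p under 0.05 against 28.7% of all genes. Without Case replicate 3 or Case replicate 6 the number passing was 2, with Glud1 and Rhcg added in turn.

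Dapa and Case were compared to ask what dapagliflozin changed in the diabetic kidney. None of the 9 genes passed edgeR's quasi-likelihood test, and neither did any of the 14573 genes tested (0.0%). An unadjusted p under 0.05 was found for 2 of the 9, Foxi1 and Slc26a4, and for 12.9% of all genes. DESeq2 called 202 genes and edgeR's exact test 125, none of them among the 9, and limma called none. The median log2 fold change was 0.10 over the 9 genes and -0.01 over all genes.

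Dapa and Ctrl were compared to place the treated diabetic kidney against the control kidney. Slc4a1, Slc26a4, Car2, Atp6v1b1 and Slc38a3 rose, 5 of the 9 genes, and none fell (edgeR's quasi-likelihood test). The number was 3 without Ctrl replicate 1 or 3 and 2 without Ctrl replicate 5. Ctrl replicate 3 stood apart in adipocyte markers, with 9.83 FPKM of Adipoq where the other Ctrl mice had 0. Dapa replicates 7, 10 and 11 also held Adipoq, at 3.11, 0.927 and 2.81 FPKM. The other Dapa mice had 0.0959 or less, and every Case mouse had 0. The part of these markers in the values was not tested. Of 14647 genes tested, 29.1% passed, 14.2% higher and 14.9% lower in Dapa. The median log2 fold change was 0.42 over the 9 genes and 0.02 over all genes, and an unadjusted p under 0.05 was found for 7 of the 9 and 41.1% of all genes. No gene of the 9 passed the study's additional threshold, a ratio of mean FPKM above 2. Of all genes, 3.79% passed it together with the adjusted p in Case against Ctrl and 7.18% in Dapa against Ctrl. The comparisons share their mice in pairs, so the values of a gene in them are given side by side and are not independent of one another.

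**Figure D2:**
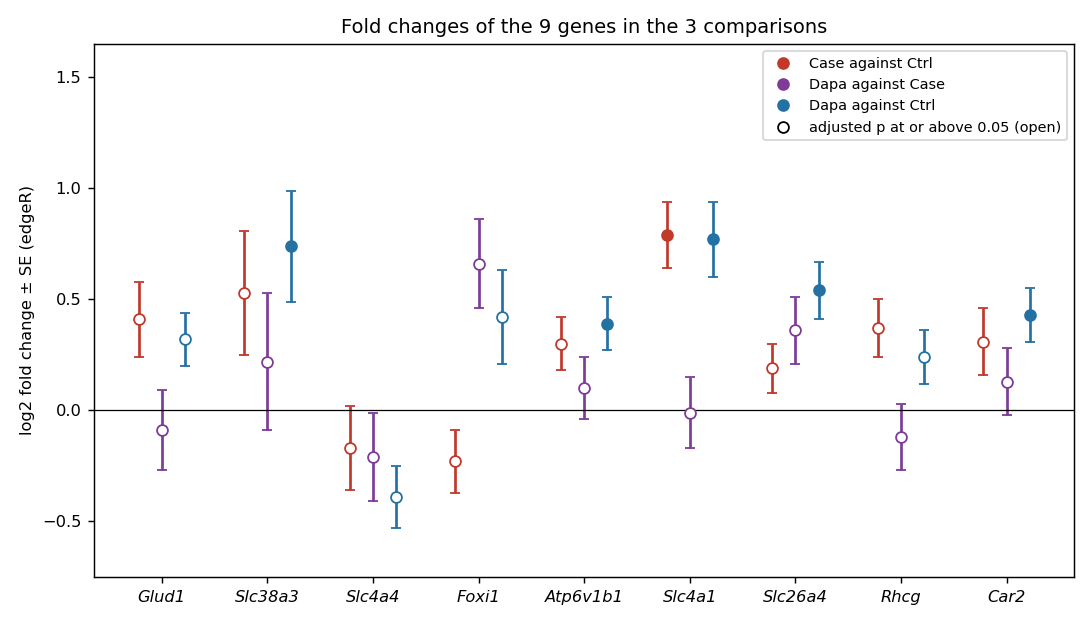
Log2 fold changes (vertical axis, edgeR, bars show the standard error) of the 9 genes in the 3 comparisons of groups, with filled points where the adjusted p was under 0.05. Slc4a1 is filled in both comparisons with Ctrl, at 0.79 and 0.77, and no point of Dapa against Case is filled.

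Glud1 (chromosome 14, 34310727 to 34345144, mm10) encodes glutamate dehydrogenase, the mitochondrial enzyme that releases ammonium from glutamate. The Ctrl mice had 144, 151, 130, 162 and 142 FPKM. The Case mice had 123 to 269 (median 206) and the Dapa mice 143 to 220 (median 210). The Ctrl mice lay close together, 5 of 6 Case mice and 5 of 6 Dapa mice lay above all of them, and Case replicate 3 lay below all of them. The log2 fold change was 0.41 (SE 0.17) in Case against Ctrl, -0.09 (SE 0.18) in Dapa against Case and 0.32 (SE 0.12) in Dapa against Ctrl, with edgeR adjusted p of 0.138, 0.865 and 0.0593. Without Case replicate 3, which had the highest summed leukocyte markers (118 FPKM where the Case median was 20.8) and erythrocyte markers of its group, the first was 0.52 and passed (adjusted p = 0.0124), and without Dapa replicate 12 the last was 0.40 and passed (adjusted p = 0.00818). Over all alternatives the adjusted p of Glud1 ran from 0.0124 to 0.573 in Case against Ctrl and from 0.00818 to 0.568 in Dapa against Ctrl. Of the 50-base stretches of its transcripts, 6.49% also occur in other genes, most of them in the pseudogene Glud-ps, so its counts can include some reads of that copy.

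Slc38a3 (chromosome 9, 107650634 to 107669530) encodes SNAT3, the carrier that brings glutamine from the blood into proximal tubule cells. In the Ctrl mice it stood at 2.63, 2.38, 3.06, 4.42 and 3.30 FPKM. Levels in Case were 2.48 to 7.59 (median 4.07) and the Dapa mice 3.23 to 9.99 (median 4.76). Case replicates 1 and 4 and Dapa replicates 7 and 8 stood well above the rest, and the other diabetic mice overlapped the Ctrl range or lay just above it. Its log2 fold change was 0.53 (SE 0.28, adjusted p = 0.243) in Case against Ctrl and 0.22 (SE 0.31, adjusted p = 0.794) in Dapa against Case by edgeR. For Dapa against Ctrl it was 0.74 (SE 0.25) with an edgeR adjusted p of 0.0411, although only 3 of 6 Dapa mice lay above every Ctrl mouse. That call was lost without Ctrl replicate 1, 2, 3 or 5 or Dapa replicate 7, 8 or 11, where the values were 0.71, 0.67, 0.75, 0.75, 0.68, 0.51 and 0.78 respectively, and the adjusted p ran from 0.012 to 0.5 over all alternatives.

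Slc4a4 (chromosome 5, 88886818 to 89239653) encodes NBCe1, which passes the reclaimed bicarbonate from proximal tubule cells to the blood. The 5 Ctrl mice had 137, 137, 134, 129 and 124 FPKM. Case kidneys held 81.4 to 160 (median 125) and the Dapa mice 84.1 to 144 (median 106). The diabetic mice spread on both sides of the narrow Ctrl range: 3 Case mice were below it and 2 above, and 4 Dapa mice were below it and 1 above. On the log2 scale the change was -0.17 (SE 0.19) in Case against Ctrl, -0.21 (SE 0.20) in Dapa against Case and -0.39 (SE 0.14) in Dapa against Ctrl, with edgeR adjusted p of 0.581, 0.687 and 0.0508. The last lay at the threshold: it passed without Dapa replicate 7 (-0.48, adjusted p = 0.0125) and without Dapa replicate 8 (-0.43, adjusted p = 0.0451), and it ran from 0.00142 to 0.728 over all alternatives. Of 10 proximal tubule markers 5 fell in Case (6.91% of all genes did) and 8 in Dapa (14.9% of all genes), and their part in the values of Slc4a4 was not tested.

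Foxi1 (chromosome 11, 34204338 to 34208089) encodes the forkhead transcription factor that intercalated cells need to form, and several of the proton pump and exchanger genes are its known targets. Ctrl kidneys held 9.22, 13.7, 13.5, 15.2 and 12.7 FPKM. In Case the mice had 8.85 to 14.3 (median 11.7) and the Dapa mice 11.4 to 26.8 (median 18.2). Case and Ctrl overlapped, with Case replicate 1 alone below every Ctrl mouse, and 4 of 6 Dapa mice stood above every Ctrl mouse and every Case mouse while Dapa replicates 7 and 12 did not. The log2 fold change was -0.23 (SE 0.14) in Case against Ctrl, 0.66 (SE 0.20) in Dapa against Case and 0.42 (SE 0.21) in Dapa against Ctrl, with edgeR adjusted p of 0.282, 0.237 and 0.149. The difference between Dapa and Case had the smallest unadjusted p of the 9 genes in that comparison, 0.00558 by edgeR, and did not pass after adjustment. Its adjusted p ran from 0.0804 to 0.916 over all alternatives.

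Atp6v1b1 (chromosome 6, 83742990 to 83758855) encodes the B1 subunit of the proton pump V-ATPase, the form used in intercalated cells. The Ctrl mice had 14, 16.4, 15.3, 18.2 and 14 FPKM. The Case mice had 16.7 to 26.5 (median 19.6) and the Dapa mice 17.8 to 25.8 (median 21.7). In both diabetic groups 5 of 6 mice lay above every Ctrl mouse, and the overlap came from Ctrl replicate 4 with Case replicate 5 and Dapa replicate 11. Its log2 fold change was 0.30 (SE 0.12) in Case against Ctrl and 0.10 (SE 0.14) in Dapa against Case, with edgeR adjusted p of 0.105 and 0.792. Atp6v1b1 rose by 0.39 in Dapa against Ctrl (SE 0.12) with an edgeR adjusted p of 0.0276. This call was lost without Ctrl replicate 1, 3 or 5 or Dapa replicate 8 or 10, where it was 0.38, 0.40, 0.35, 0.35 and 0.37 respectively, and the adjusted p ran from 0.0092 to 0.316 over all alternatives.

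The promoter of Atp6v1b1 is shown because, of the members with a sequence in the table used, it alone held the letters of a forkhead core, the kind of sequence that Foxi1 binds. The search covered GTAAACA and ATAAACA on both strands, in windows from 250 bases before to 50 bases after each gene start in RefSeq (GRCm38.p6). Windows were found for 6 of the 9 genes (Glud1, Slc4a4, Slc26a4, Atp6v1b1, Foxi1 and Rhcg), with 7 windows in all because Slc4a4 has a pair of starts. One of these 7 windows (14.3%) held a match, against 7.97% of all 32851 windows and 2 of 22 windows (9.09%) of the intercalated cell genes described below. The match lies on the minus strand with its first base 98 bases before the start. The stretch from chr6:83742889-83742955, plus strand, follows with the match in capitals.
Atp6v1b1: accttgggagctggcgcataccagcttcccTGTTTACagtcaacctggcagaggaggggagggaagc
The match is a description of the letters, and no binding was measured in these data as used here.

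Slc4a1 (chromosome 11, 102348824 to 102366203) encodes the chloride-bicarbonate exchanger AE1, which passes bicarbonate from type A intercalated cells to the blood and is also the band 3 protein of red cells. In the Ctrl mice it stood at 3.84, 6.39, 4.51, 6.44 and 5.34 FPKM. Levels in Case were 7.60 to 12.8 (median 9.29) and the Dapa mice 6.67 to 13.5 (median 9.20). Every Case mouse and every Dapa mouse lay above every Ctrl mouse, which held for 4.97% of genes in Case and 9.79% in Dapa. Slc4a1 rose by 0.79 (SE 0.15) on the log2 scale in Case against Ctrl, with an edgeR adjusted p of 0.00601. In Dapa the rise against Ctrl was 0.77 (SE 0.17, edgeR adjusted p = 0.00622). Dapa and Case overlapped over most of their range, with a log2 fold change of -0.01 (SE 0.16, edgeR adjusted p = 0.979). Both calls held with each mouse left out in turn, with log2 fold changes of 0.71 to 0.87 in Case and 0.67 to 0.86 in Dapa, and both were lost in some of the fits by batch given below.

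Red cell genes rose beside Slc4a1. The summed FPKM of 15 erythrocyte markers ran from 20.5 to 72.4 in Ctrl, from 59.4 to 440 in Case and from 114 to 362 in Dapa, with medians of 47.0, 168 and 249. The haemoglobin genes Hba-a1, Hba-a2, Hbb-bs and Hbb-bt and the heme synthesis gene Alas2 made up all 5 of the 8 tested markers that passed in Case against Ctrl, with log2 fold changes of 1.78 to 2.52, and 8 of 9 tested markers rose in Dapa against Ctrl (6.09% and 14.2% of all genes rose). Apart from Klf1, a factor of red cell precursors with 1.83 FPKM in Ctrl, 2.90 in Case and 3.61 in Dapa on average, the other markers were low. Gata1 was at 0 in every Ctrl and Case mouse, and these 9 of the 15 markers, Gata1 among them, had a mean under 1 FPKM in every group. Case replicates 1 and 2 had summed marker levels of 59.4 and 66.9, within the Ctrl range, and their Slc4a1 levels of 9.07 and 9.51 FPKM were above every Ctrl mouse. Their haemoglobin genes lay within the Ctrl range, but their Alas2 levels of 1.87 and 1.72 FPKM were above the highest Ctrl mouse (1.37). With the group means removed, Slc4a1 and the mean of the erythrocyte markers had r = 0.43 (permutation p = 0.0893) and rho = 0.50 (permutation p = 0.0586) over 17 mice, with adjusted p of 0.298 and 0.195 over the 20 relations computed, and r was 0.52 without the 2 mice farthest from the median. The share of Slc4a1 counts that came from red cells was not tested.

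**Figure D3:**
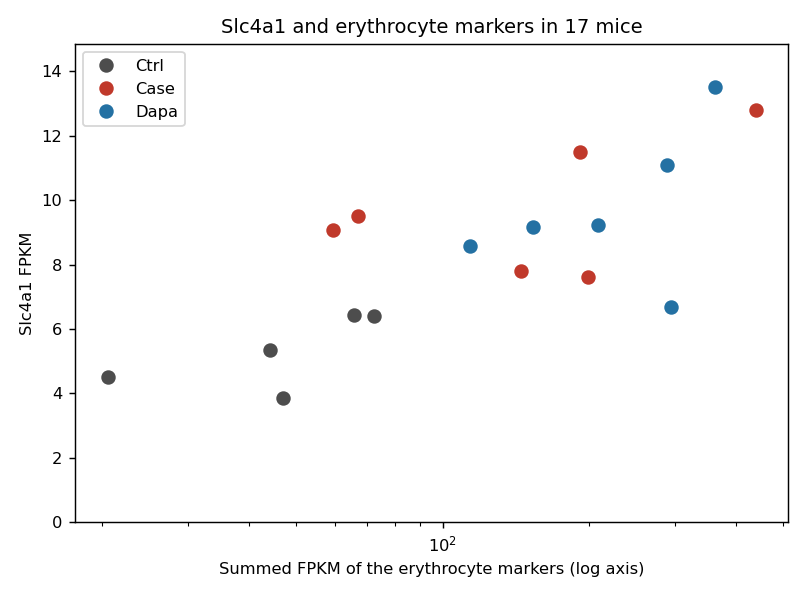
Slc4a1 FPKM (vertical axis, linear) against the summed FPKM of 15 erythrocyte markers (horizontal axis, log scale) in each of 17 mice, coloured by group. The Case mice with marker sums of 59.4 and 66.9 lie among the Ctrl mice on the horizontal axis and above them on the vertical axis.

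Slc26a4 (chromosome 12, 31519827 to 31559969) encodes pendrin, the exchanger through which type B intercalated cells secrete bicarbonate and take up chloride. The 5 Ctrl mice had 20.9, 22.5, 21.4, 24.0 and 20.8 FPKM. Case kidneys held 20.6 to 33.2 (median 26.2) and the Dapa mice 29.5 to 49.0 (median 31.1). Every Dapa mouse lay above every Ctrl mouse, which held for 9.79% of genes. Of the 6 Case mice 5 lay above every Ctrl mouse and Case replicate 1 below them all, and only Case replicate 5 lay within the Dapa range. Slc26a4 rose in Dapa against Ctrl by 0.54 on the log2 scale (SE 0.13, edgeR adjusted p = 0.0104), a 1.46-fold level. The rise was 0.41 without Dapa replicate 9, the mouse at 49.0 FPKM, and passed without each mouse in turn. On the log2 scale the change was 0.19 (SE 0.11) in Case against Ctrl and 0.36 (SE 0.15) in Dapa against Case, with edgeR adjusted p of 0.262 and 0.34. The anion exchanger Slc4a9 of the same cells, which lies on the blood side, had log2 fold changes of 0.01 in Case against Ctrl and 0.12 in Dapa against Ctrl and passed in neither by edgeR. The level ratio of Slc4a1 to Slc26a4, the type A against the type B exchanger, had a median of 0.257 in Ctrl, 0.397 in Case and 0.297 in Dapa, as a description.

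Rhcg (chromosome 7, 79593363 to 79617657) encodes the Rh glycoprotein that lets ammonia pass into the urine of the collecting duct. Ctrl kidneys held 19.9, 24.8, 22.4, 27.2 and 23.6 FPKM. In Case the mice had 22.9 to 41.5 (median 32.6) and the Dapa mice 23.5 to 37.5 (median 30.1). In each diabetic group 4 of 6 mice lay above every Ctrl mouse and the others within the Ctrl range. The log2 fold change was 0.37 (SE 0.13) in Case against Ctrl, -0.12 (SE 0.15) in Dapa against Case and 0.24 (SE 0.12) in Dapa against Ctrl, with edgeR adjusted p of 0.0824, 0.749 and 0.131. Without Case replicate 6 the first was 0.44 and passed (adjusted p = 0.0403), and without Dapa replicate 8 the last was 0.31 and passed (adjusted p = 0.0468). Over all alternatives the adjusted p ran from 0.0403 to 0.504 and from 0.0441 to 0.578 in these comparisons. The related Rhbg, the Rh glycoprotein of the blood side, had a median of 11.9 FPKM in Ctrl, 17.1 in Case and 19.5 in Dapa, and it rose by 0.54 in Case and by 0.64 in Dapa against Ctrl on the log2 scale (edgeR adjusted p of 0.00598 and 0.00109). The ratio of Rhcg to Rhbg within a mouse had a median of 2.02 in Ctrl, 1.80 in Case and 1.48 in Dapa, and it was not tested.

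Car2 (chromosome 3, 14886273 to 14900770) encodes carbonic anhydrase II, the cytosolic enzyme that makes protons and bicarbonate in proximal and intercalated cells and is also found in red cells. The Ctrl mice had 134, 126, 102, 139 and 111 FPKM. The Case mice had 122 to 184 (median 168) and the Dapa mice 143 to 217 (median 174). Every Dapa mouse lay above every Ctrl mouse, which held for 9.79% of genes, and 4 of 6 Case mice did. Car2 rose by 0.43 in Dapa against Ctrl on the log2 scale (SE 0.12, edgeR adjusted p = 0.0192), a call lost without Ctrl replicate 5 (0.39, adjusted p = 0.0527), with a range of 0.00365 to 0.194 over all alternatives. Its log2 fold change was 0.31 (SE 0.15) in Case against Ctrl and 0.13 (SE 0.15) in Dapa against Case, with edgeR adjusted p of 0.183 and 0.741. Within groups, Car2 and the erythrocyte markers had r = 0.07 (permutation p = 0.837) and rho = 0.20 (permutation p = 0.5) over 17 mice, with adjusted p of 0.94 and 0.903 over 20 relations, and r was 0.43 without the 2 mice farthest from the median.

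The possible batch split the comparison of Dapa and Ctrl, since 3 of 5 Ctrl and 3 of 6 Dapa libraries belonged to it. Among these 6 libraries, Slc4a1, Slc26a4 and Slc4a4 passed edgeR's quasi-likelihood test, against 20.8% of all genes. Slc4a1 rose by 1.08 there (adjusted p = 0.0102) and had 0.40 in the 5 other libraries (adjusted p = 0.302). Slc26a4 rose by 0.39 there (adjusted p = 0.039) and had 0.70 in the others (adjusted p = 0.182). Both genes lay on the same side in both sets. Slc4a4 fell by 0.71 within the batch (adjusted p = 0.00618) and had -0.11 outside it (adjusted p = 0.728), with the lower levels in Dapa replicates 10, 11 and 12. Of the 8 principal cell markers, Aqp2 (84.9, 158 and 195 FPKM against 47.1 to 62.2), Fxyd4 (8.94, 8.36 and 15.5 against 3.14 to 4.31) and Elf5 were higher in these 3 mice than in every other Dapa mouse, and the other 5 overlapped. Of the endothelium markers, Pecam1 (11.1, 10.1 and 11.4 against 6.52 to 7.14), Cdh5, Emcn, Tie1 and Egfl7 were likewise higher in them, and Kdr overlapped. The proximal tubule markers Slc34a1, Slc5a12 and Slc27a2 were lower in these 3 mice than in every other Dapa mouse, and the remaining proximal markers overlapped. The part of these differences in the values was not tested. Slc38a3 had 0.21 within the batch and 1.24 outside it, Atp6v1b1 0.22 and 0.57, Car2 0.36 and 0.53, Foxi1 0.59 and 0.22, Glud1 0.13 and 0.48, and Rhcg 0.29 and 0.19, none of which passed. The 5 other libraries hold only 2 Ctrl mice, and just 1.84% of all genes passed there. With a term for the batch over all 11 libraries, Slc4a1 (0.77), Slc26a4 (0.52), Car2 (0.43) and Atp6v1b1 (0.37) rose, Slc4a4 fell by 0.45 (adjusted p = 0.0157), and Slc38a3 had 0.66 and did not pass (adjusted p = 0.0655). With Ctrl replicate 2 counted in the batch, Slc4a1 (0.84), Slc26a4 (0.50) and Car2 (0.44) rose with the term and Slc4a4 fell by 0.52, where 30.5% of all genes passed. Atp6v1b1 (0.35, adjusted p = 0.0581) and Slc38a3 (0.53, adjusted p = 0.113) did not pass there. The batch with Ctrl replicate 2 held the same 3 called genes as before, Slc4a1 (0.97), Slc26a4 (0.38) and Slc4a4 (-0.72), where 27.6% of all genes passed. Outside that batch 1 Ctrl mouse remained.

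**Figure D4:**
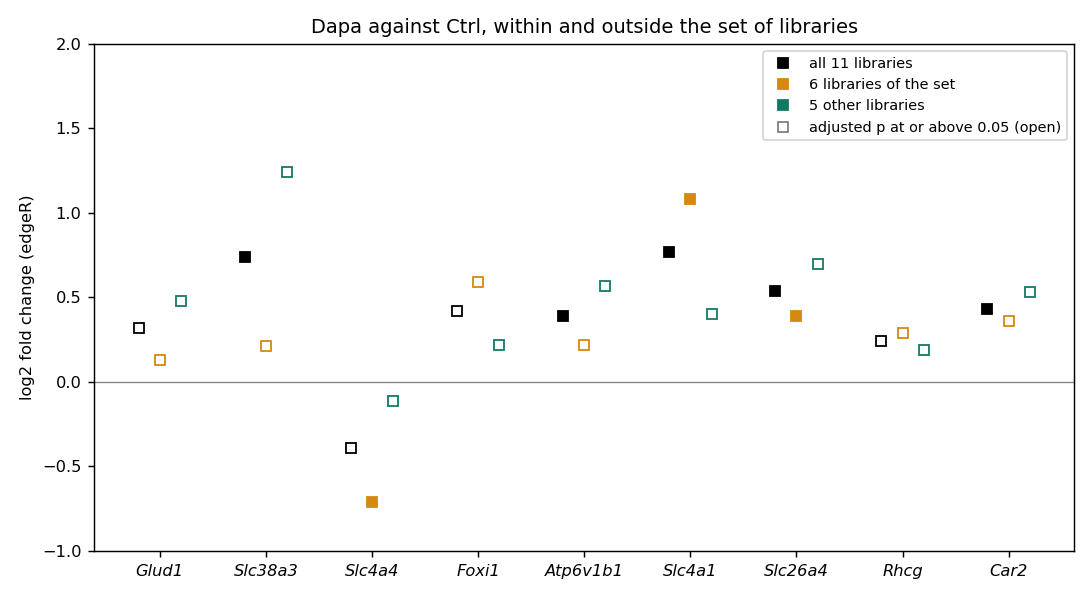
Log2 fold changes (vertical axis, edgeR) of the 9 genes in Dapa against Ctrl over all 11 libraries, among the 6 libraries of the possible batch and among the 5 other libraries, filled where the adjusted p was under 0.05. Each gene keeps its sign in all 3 fits, and Slc38a3, with 0.21 and 1.24, differs most between the sets.

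The batch held just 1 Case library, too few for a comparison of Case with Ctrl or Dapa within it. Among the Case and Ctrl libraries outside it, only 2 of them Ctrl, Slc4a1 had 0.66 in Case against Ctrl (edgeR adjusted p = 0.152), with 1.7% of all genes passing. With the batch as a term Slc4a1 rose by 0.71 (edgeR adjusted p = 0.024), where 8.36% of all genes passed. With Ctrl replicate 2 counted in the batch the term gave 0.76, which did not pass (edgeR adjusted p = 0.0523), and Atp6v1b1 passed with 0.52 (edgeR adjusted p = 0.0239), against 5.15% of all genes. The adjusted p of Slc4a1 in Case against Ctrl ran from 4.06e-05 to 0.152 over all alternatives. In Dapa against Case, among the libraries outside the batch, Foxi1 had 0.43 and Slc26a4 0.43 (adjusted p of 0.916 for both).

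The rest of the acid-base machinery was described with 6 lists that hold 75 other genes, of which 74 were tested and Adcy10 was not for its low counts. In Case against Ctrl 11 of the 74 rose and 3 fell, or 18.9% against the 13.0% of all genes, and the 14 became 9, 6 and 8 without Ctrl replicate 1, 3 and 5, of which Ctrl replicate 3 was the mouse high in Adipoq. Against Ctrl, 22 rose and 13 fell in Dapa, or 47.3% against 29.1%. In Dapa against Case none passed edgeR's quasi-likelihood test and 13 had an unadjusted p under 0.05, against 12.9% of all genes. DESeq2 called 1 of the 74, the glutamine synthetase gene Glul, lower in Dapa, and 1.39% of all genes. The median log2 fold change over the 74 genes was 0.02, 0.01 and 0.03 in these comparisons in the order named. Among the libraries of each comparison outside the batch, 1 of these genes passed in Case against Ctrl and 2 in Dapa against Ctrl.

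**Figure D5:**
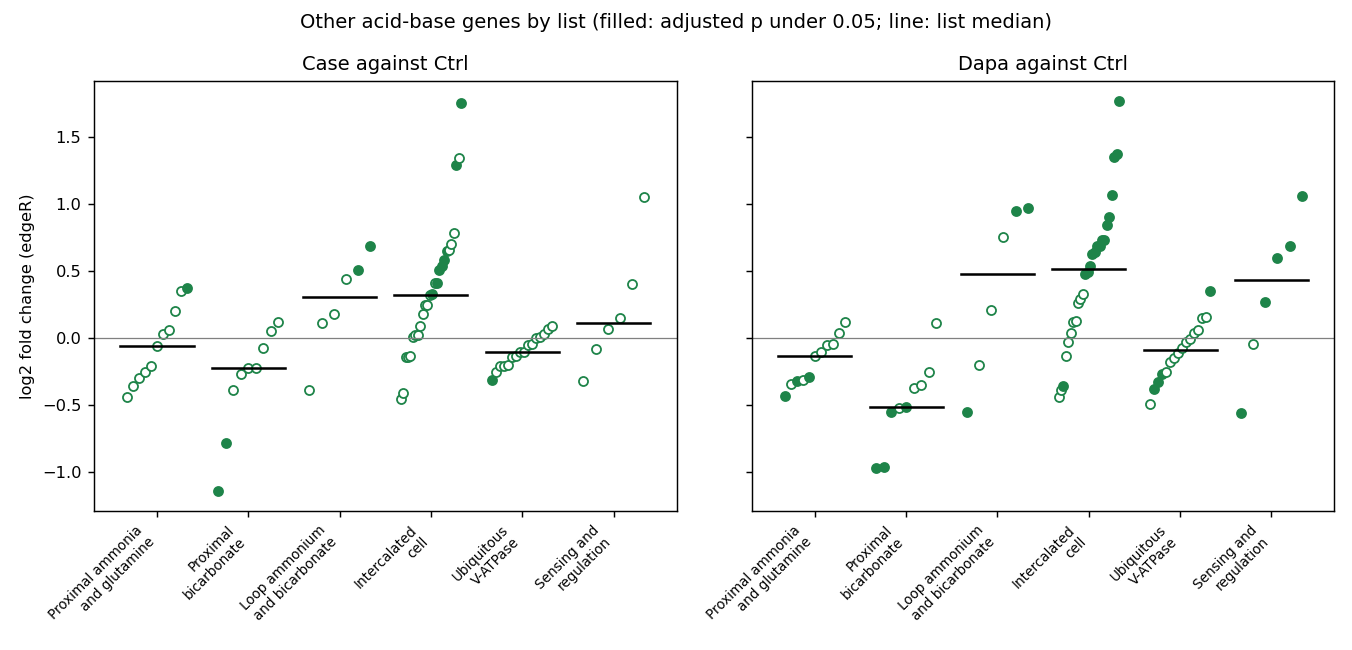
Log2 fold changes (vertical axes, edgeR) of the 74 other acid-base genes by list in Case against Ctrl and Dapa against Ctrl, each point a gene, filled where the adjusted p was under 0.05, with a line at the list median. The intercalated cell list has medians of 0.33 and 0.51, and the proximal bicarbonate list has medians of -0.22 and -0.51.

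The intercalated cell list held 26 genes besides the members. In Case against Ctrl 8 rose, where 6.09% of all genes did, and none fell, with a list median of 0.33. The largest of these rises were those of P2ry14, a receptor for UDP-glucose with only 6 to 28 counts in Ctrl and 18 to 59 in Case (log2 fold change 1.75), and Aqp6, a water and anion channel of intracellular vesicles (1.29). Atp4a (0.65), the catalytic subunit of a proton-potassium pump, Rhbg (0.54), Atp6v1g3 (0.51), Car15 (0.41) and Atp6v1c2 (0.33) were also among the 8. In Dapa against Ctrl 15 rose, where 14.2% of all genes did, and 1 fell, with a list median of 0.51. The 15 were the 8 genes that rose in Case, among them P2ry14 at 1.77, Aqp6 at 1.37, Atp4a at 0.84, Atp6v1c2 at 0.69, Rhbg at 0.64, Atp6v1g3 at 0.63 and Car15 at 0.49, and 7 others. These were the exchangers Slc26a7 (1.35) and Slc4a8 (1.07), the transcription factor Dmrt2 (0.90), Hepacam2 (0.73), the chloride channel subunit Bsnd (0.69), the proton pump subunit Atp6v0d2 (0.54) and the vasopressin receptor Avpr1a (0.48). Slc26a7 and Slc4a8 had only 13 to 54 and 45 to 86 counts in Ctrl. Atp6v0a4, another subunit of the intercalated cell pump that proximal cells also use, fell by 0.36.

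Some markers of neighbouring cell types rose with this list. In Case against Ctrl 2 of 8 principal cell markers and 3 of 6 distal convoluted tubule markers rose (6.09% of all genes did), and in Dapa against Ctrl 5 of 8 and 4 of 6 did (14.2% of all genes). The summed FPKM of the intercalated list was 356 to 429 in Ctrl, 437 to 505 in Case and 446 to 573 in Dapa. That of the distal convoluted tubule was 241 to 319, 323 to 537 and 439 to 537, and that of the principal cells 129 to 170, 155 to 266 and 185 to 380, in the same order. The part of the makeup of the kidneys in the values of Slc4a1, Slc26a4, Atp6v1b1, Car2 and the list was not tested.

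The ubiquitous subunits of the V-ATPase, encoded by 16 genes used in every cell, had list medians near 0 with single genes on both sides. In Case against Ctrl none rose and Atp6v1c1 fell by 0.31, where 6.91% of all genes fell, with a list median of -0.10. In Dapa against Ctrl Atp6v0a1 rose by 0.35, and Atp6v1c1, Atp6v1b2 and Atp6v1a fell by 0.38, 0.33 and 0.27, where 14.2% of all genes rose and 14.9% fell, with a list median of -0.09. Atp6v1b1 and Atp6v1b2 encode alternative B subunits of the same pump. Their level ratio ran from 0.251 to 0.372 in Ctrl, from 0.259 to 0.534 in Case and from 0.386 to 0.556 in Dapa, with medians of 0.279, 0.370 and 0.481. Every Dapa mouse had a higher ratio than every Ctrl mouse, and the ratio was not tested.

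Among the 9 genes that act before Slc4a4 in bicarbonate reclamation 2 fell in Case against Ctrl, the membrane-bound carbonic anhydrase Car4 by 1.14 and the sodium-proton exchanger Slc9a8 by 0.78, and the list median was -0.22. Against Ctrl, 4 fell in Dapa, Car4 by 0.97, Slc9a8 by 0.96, the carbonic anhydrase Car14 by 0.55 and Slc9a3, the main apical sodium-proton exchanger, by 0.51, and the list median was -0.51. None rose in either, and 6.91% of all genes fell in Case and 14.9% in Dapa. The 10 proximal tubule markers had medians of -0.64 and -0.54, and their part in these values was not tested. Car4 also passed in both comparisons among their libraries outside the possible batch, only 2 of which were Ctrl.

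A list of 11 other genes covered the handling of ammonia and glutamine, and not ammonia production alone. In Case against Ctrl the aspartate aminotransferase Got1 rose by 0.37 and none fell, with a list median of -0.06. An unadjusted p under 0.05 by edgeR was found for 5 of the 11 (28.7% of all genes). In Dapa against Ctrl none rose, and the oxoglutarate carrier Slc25a11, Glul and the oxoglutarate dehydrogenase Ogdh fell by 0.43, 0.32 and 0.29, or 3 of 11 genes where 14.9% of all genes fell, with a list median of -0.13. Pck1, the enzyme that leads the carbon of glutamine into glucose, had log2 fold changes of -0.21 in Case and -0.13 in Dapa against Ctrl, and it passed in no comparison.

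Among 6 genes of ammonium and bicarbonate transport in the loop of Henle, the bicarbonate carrier Slc4a7 and the sodium-proton exchanger Slc9a4 rose in Case against Ctrl by 0.51 and 0.69, where 6.09% of all genes rose. Slc9a4 had only 31 to 51 counts in Ctrl. In Dapa against Ctrl Slc4a7 and Slc9a4 rose by 0.97 and 0.95, and Slc9a2, an apical sodium-proton exchanger, fell by 0.55, where 14.2% of all genes rose and 14.9% fell. Of 6 tested genes of acid-base sensing and regulation none passed in Case against Ctrl (13.0% of all genes did), where Edn1 had 1.05, Ptk2b -0.32 and Ednrb 0.40. Edn1 had only 13 to 36 counts in Ctrl. In Dapa against Ctrl Edn1, the gene of endothelin, rose by 1.06, its receptor gene Ednrb by 0.69, the mineralocorticoid receptor gene Nr3c2 by 0.60 and the stress response factor Nfe2l2 by 0.27, and the kinase gene Ptk2b fell by 0.56, 5 of 6 genes where 29.1% of all genes passed.

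In Dapa against Case, where none of the 74 genes passed, the 3 genes of each list with the smallest unadjusted p are given by their log2 fold changes. In the intercalated list these were Avpr1a (0.47), Bsnd (0.37) and Atp6v1c2 (0.36), and Atp6v0a4 had -0.44, Atp6v0d2 0.30, Rhbg 0.10 and Slc4a9 0.12. They were Glul (-0.67), Got1 (-0.24) and Slc25a11 (-0.13) among the genes of ammonia and glutamine handling. In the proximal bicarbonate list they were Slc26a6 (-0.57), Slc9a3 (-0.29) and Car14 (-0.32). The loop genes were Slc4a7 (0.47), Kcnj1 (-0.38) and Slc9a4 (0.26), the ubiquitous pump subunits Atp6v0a1 (0.29), Atp6v1b2 (-0.23) and Atp6ap1 (0.28), and the sensing genes Nr3c2 (0.69), Nfe2l2 (0.21) and Ptk2b (-0.23). The adjusted p of these genes was 0.223 or more.

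The members were also compared with each other across mice, to see whether mice high in one gene of a cell type were high in the others. The group means were removed, mice were permuted within groups, and 20 relations were computed over 17 mice. Glud1 and Slc38a3 had r = 0.77 (permutation p = 0.00146, adjusted p = 0.0292) and rho = 0.73 (permutation p = 0.00624, adjusted p = 0.125), and r was 0.63 without the 2 mice farthest from the median. Within the 7 libraries of the possible batch r was 0.75 and rho 0.75 (permutation p of 0.195 and 0.193), and within the 10 others r was 0.65 and rho 0.47 (permutation p of 0.123 and 0.236). The relation no longer passed without Ctrl replicate 4, Case replicate 3, 4 or 5, or Dapa replicate 10 or 12, with 0 of the 20 relations left, and without Dapa replicate 11 there were 2. Glud1 and Slc4a4 had r = 0.75 (permutation p = 0.0053, adjusted p = 0.053) and rho = 0.68 (permutation p = 0.0164, adjusted p = 0.164), with r = 0.51 without the 2 farthest mice, r = 0.47 within the batch and r = 0.84 outside it. Slc38a3 and Slc4a4 had r = 0.64 (permutation p = 0.0301, adjusted p = 0.2) and rho = 0.57 (permutation p = 0.0489, adjusted p = 0.195), with r = 0.57 without the 2 farthest mice, but r = -0.12 within the batch and 0.67 outside it. The relation of Glud1 with Slc38a3 thus kept its sign in both sets of libraries without passing in either alone, and that of Slc38a3 with Slc4a4 did not hold within the batch.

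None of the 15 relations among Foxi1, Slc26a4, Atp6v1b1, Slc4a1, Rhcg and Car2 passed after adjustment. The strongest by r were Rhcg with Car2, at r = -0.54 (permutation p = 0.0603, adjusted p = 0.241) and rho = -0.56 (permutation p = 0.0473, adjusted p = 0.195), and Slc4a1 with Rhcg, at r = 0.50 (permutation p = 0.0551, adjusted p = 0.241) and rho = 0.54 (permutation p = 0.0394, adjusted p = 0.195). Without the 2 farthest mice r was -0.39 and 0.25. Foxi1 and Slc26a4 had r = 0.12 and Foxi1 and Atp6v1b1 r = 0.04 (permutation p of 0.811 and 0.911), with rho of 0.02 and 0.13.

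For each gene the 3 genes with the most similar pattern over the 17 mice were found by Pearson's r of log2(CPM + 1) among 13908 genes with a mean CPM of at least 1. For Slc26a4 they were Dgcr14 (r = 0.879), the proton pump subunit gene Atp6v1c2 (r = 0.851) and Pip5k1b (r = 0.818). Slc4a4 had Aldh4a1 (0.933), the respiratory chain gene Sdha (0.926) and Ildr2 (0.921), and Glud1 had Hpd (0.901), Tmem159 (0.862) and Egln3 (0.844). Slc38a3 had Guca2b (0.89), Cyp4a14 (0.87) and Rai2 (0.836). Slc4a1 had Tmem63a (0.952), Setd7 (0.917) and St5 (0.915), none of them among the erythrocyte markers used here. Foxi1 had Plxna2 (0.9), Ice1 (0.885) and Taok1 (0.882), and Atp6v1b1 had Cbr1 (0.868), Firre (0.845) and Arl4c (0.844). Car2 had Ndufa11 (0.895), Ndufa8 (0.891) and Mnat1 (0.89), the first and second of which encode subunits of respiratory complex I. Rhcg had Ercc1 (0.91), Rab9 (0.859) and Rassf6 (0.851). Atp6v1c2 was the sole gene among these that belongs to the acid-base lists. The points share their libraries and group differences, so these values are descriptions.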

How the data were processed

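Kidney RNA of 5 Ctrl, 6 Case and 6 Dapa mice was analysed, grouped by the sample labels. Reads of strand-specific libraries were aligned by the authors to mm10 with HISAT2 and counted per gene with Stringtie. Whether counting used the strand is not given in the sources used here. The read counts per gene and the FPKM values were deposited by the authors. No exon of the 9 genes overlapped another gene in the annotation used. The labels name separate mice as replicates.

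Counts were normalized by TMM and compared per pair of groups in R 4.3.3 with edgeR 4.0.16 (filterByExpr, quasi-likelihood test, Benjamini-Hochberg over all genes tested, threshold 0.05). Levels are FPKM as deposited, which hold no TMM factor. By these levels 1434 of the tested genes lay wholly above Ctrl in Dapa and 695 wholly below. In Case the numbers were 725 and 504, so counts of mice above Ctrl lean upward. The results were recomputed with DESeq2 1.42.0, with edgeR's exact test, with limma 3.58.1 on log2(FPKM + 1) and log2(FPKM + 0.1), with upper quartile and median ratio scaling, without a filter or with a minimum of 10 counts in each sample, over all 3 groups at once, with a term for 7 libraries, with a replicate block, and leaving out 1 mouse at a time. Fits on the 10 other libraries or the 7 alone, and those with 8 libraries in place of the 7, were chosen after seeing the data. Each of these fits used only those libraries that belonged to the groups compared. Correlations used log2(CPM + 1) and 100000 permutations, in Python 3.11.15 with numpy 2.4.6 and scipy 1.17.1. Figures used matplotlib 3.10.9. The tests were tested on simulated data.

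The 9 genes and all lists were chosen with earlier results of these data known. The genes named are the 9, every list gene that passed in a comparison or the 3 with the smallest p where none did, further genes fixed by name (Atp6v1b2, Slc4a9, Atp6v0a4, Atp6v0d2, Pck1, Slc9a3, Rhbg), and the checks. Some genes that this rule names are counted but not reported here. Of the tested podocyte (6), endothelium (6), leukocyte (6), and adipocyte and adrenal (2) markers 2, 1, 0 and 1 rose in Case against Ctrl (6.09% of all genes did) and 2, 1, 0 and 1 in Dapa against Ctrl (14.2%). The adipocyte markers Adipoq, Plin1, Cidec and Lep did not pass the expression filter and were not tested. Their highest counts in a mouse were 264, 203, 147 and 46, and each was at 0 in some mice of every group. No 2 libraries were duplicates (lowest chi-square per gene 14.2). Counts give precision within a library only. ATAC-seq was not analysed here.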

Additional observations from a re-analysis of the deposited data

Results flagged for a closer look

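Of 30 groups of values examined, 2 held a mouse far from the others of its group, where chance gives about 1 in 20. Slc26a4 had 49.0 FPKM in Dapa replicate 9, where the next highest Dapa mouse had 34.6, a gap of 0.738 of the group's range. Without that mouse the log2 fold change against Ctrl was 0.41 and passed. The summed erythrocyte markers had 440 FPKM in Case replicate 3, where the next highest Case mouse had 199, a gap of 0.632 of the range. The same mouse had summed leukocyte markers of 118 FPKM, where the Case median was 20.8, and Lyz2 at 99.3 FPKM. It also had the highest Slc4a1 level of its group, 12.8 FPKM, and Slc4a1 passed in Case against Ctrl without it.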

How the results depend on the processing

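Each of the 9 genes had at least 297 counts in every mouse, and the number of mice in a group limits the precision. With each mouse left out in turn, 1 to 2 of the 9 genes passed in Case against Ctrl, 2 to 6 in Dapa against Ctrl and 0 to 0 in Dapa against Case, and 6 to 19, 27 to 37 and 0 to 0 of the other genes. Between 0 and 2 relations between members passed. With a fold above 2 the members passing were 0 and 0 and the other genes 3 and 8 in Case and Dapa against Ctrl. Among those of the 10 other libraries that each comparison used, the numbers were 0 and 0, and 1 and 2. In the 7 libraries, and in 8 with Ctrl replicate 2 added, 3 members passed in Dapa against Ctrl, and with a term for the 8 libraries 5 other genes passed in Case against Ctrl. DESeq2 called 1 other gene in Dapa against Case. No relation passed with log2(FPKM + 1) or in the 10 other libraries, and 2 with log2(CPM + 0.1).

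Some directions of Dapa against Case turned, all for changes that never passed. They were Glud1 (0.17) and Slc4a4 (0.03) in the 10 other libraries and, with 1 mouse left out, Glud1 (-0.20 to 0.01, above 0 without Case replicate 1), Slc38a3 (-0.01 to 0.40, below 0 without Dapa replicate 8) and Slc4a1 (-0.13 to 0.08, above 0 without Case replicate 3 or 4 or Dapa replicate 7, 8, 9 or 11). The cause was not tested. Replicate numbers shared by Ctrl and Case did not pair the mice (correlations of deviations -0.09 to -0.04, and 0 of 5 Ctrl mice correlated best with the Case mouse of their own number). With the number as a block Slc4a1 rose by 0.84 (adjusted p = 0.025) as the sole member, 6 other acid-base genes passed, and 707 of all genes passed against 1895 without the block.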
